A study of Mus musculus with 9 samples.

Results

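Transcripts of the TGF-beta, BMP and activin pathway were examined in pancreatic islets of mice that lack *Raptor* in beta cells. Genes were taken by symbol: the TGF-beta ligands, latent TGF-beta binding proteins, BMP, GDF and activin ligands, their receptors and the Smads, together with *Fst*, *Fstl1*, *Nog* and *Grem1*. The platform annotation held 53 such genes of 18193 in all, and 41 of them lay above the filter on dim genes and were tested. *Bmp1*, *Bmp2k* and *Tgfb1i1* also carry matching names, although they encode a protease, a kinase and an adhesion-site protein and no ligand. βRapKO mice were *Raptor* flox/flox animals with Cre recombinase under the rat insulin promoter (RIP-Cre, a line of mixed background), and the WT controls were *Raptor* flox/flox littermates without Cre, so that only βRapKO mice carried the transgene. All were males of 8 weeks, labelled C57BL/6. RNA pooled from islets of 5 animals of the same genotype was hybridised to each Affymetrix array, with 5 WT and 4 βRapKO arrays from separate pools. The floxed alleles are recombined only in cells in which the insulin promoter is active, whereas whole islets also hold other endocrine cells, vessels and stroma.

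Ligands of this family are secreted as dimers, and the TGF-betas are stored in the matrix in a latent form bound to latent TGF-beta binding proteins. A ligand joins type II and type I receptor kinases, and the type I receptor phosphorylates receptor-activated Smads, which enter the nucleus with Smad4 and control transcription. Smad6 and Smad7, follistatin, noggin and gremlin restrain the signal, and in the pancreas the pathway is known for its part in islet development, beta cell growth and the laying down of matrix by stromal cells.

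Values are log2 signals of the brightest probe set of a gene, given as mean ± SD, and differences are βRapKO minus WT with their SE, so that a difference of 1.00 is a doubling. Precision is limited by the number of arrays, and p-values set a difference against the spread between pools, not between animals. *Rptor*, the symbol of *Raptor*, was lower in βRapKO islets, at 8.75 ± 0.32 (SD, n = 4) against 9.47 ± 0.21 (SD, n = 5; limma adjusted p = 0.0410). The groups did not overlap but nearly touched, since βRapKO replicate 3 read 9.21 and WT replicate 4 read 9.22. The call of *Rptor* held in 6 of 18 other settings, and with its probe sets averaged the difference was -0.16 ± 0.38 in place of -0.72 ± 0.17 (limma adjusted p = 0.888). The label of islets was borne out by the 7 tested beta cell markers, whose mean log2 signal lay between 13.77 and 13.99 on the WT arrays and between 13.18 and 13.38 on the βRapKO arrays. All 7 had a lower mean in βRapKO islets and 4 passed the test, among them *Slc2a2*, the glucose transporter gene (-1.33 ± 0.09). The hormone genes *Ins2* (-0.05 ± 0.15) and *Iapp* (-0.12 ± 0.09) moved little and did not pass. *Iapp*, with means of 15.35 in WT and 15.23 in βRapKO islets, lay near the top of the signal range. Whether a change could show at such a signal was not tested. Markers of stromal cells went the other way, with 17 of 18 higher in βRapKO islets and 11 called, such as *Lum* (1.54 ± 0.26) and *Postn* (1.68 ± 0.29). Among the 7 not called, *Rgs5* (0.32 ± 0.16), *Acta2* (0.34 ± 0.19) and *Cspg4* (-0.19 ± 0.16) moved little. A lower share of a cell type and less RNA per cell of that type cannot be told apart in whole islets.

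At a limma adjusted p under 0.05, 6 of the 41 pathway genes differed between the genotypes, or 14.6%, against 6.3% of all 13644 tested genes. *Fstl1*, *Gdf10*, *Ltbp1* and *Tgfbr2* rose in βRapKO islets and *Ltbp2* and *Tgfbr1* fell, while 35 pathway genes did not pass. The 4 that rose were 9.76% of the tested pathway genes, against 3.67% of all genes, and the 2 that fell were 4.88%, against 2.63%. The groups did not overlap for 8 pathway genes (19.5%), the 6 called genes with *Bmp4* and *Bmpr2*, and for 12.5% of all genes. At the looser thresholds of the study, a fold above 1.5 with an unadjusted p below 0.05, 11 pathway genes passed (26.8%), 8 higher and 3 lower, against 9.18% of all genes. The median difference of the 41 genes was 0.086, with 27 above 0 (65.9%), and that of all genes was 0.04, with 56.2% above 0. The number of calls was small and moved with the setting: after centring of the arrays on their medians 1 gene rose and 2 fell, and with quantile normalization 2 rose and 2 fell. *Fstl1* and *Ltbp2* were the only pathway genes called when WT replicate 2, or any 1 of the 4 βRapKO replicates, was left out.

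**Figure D1:**
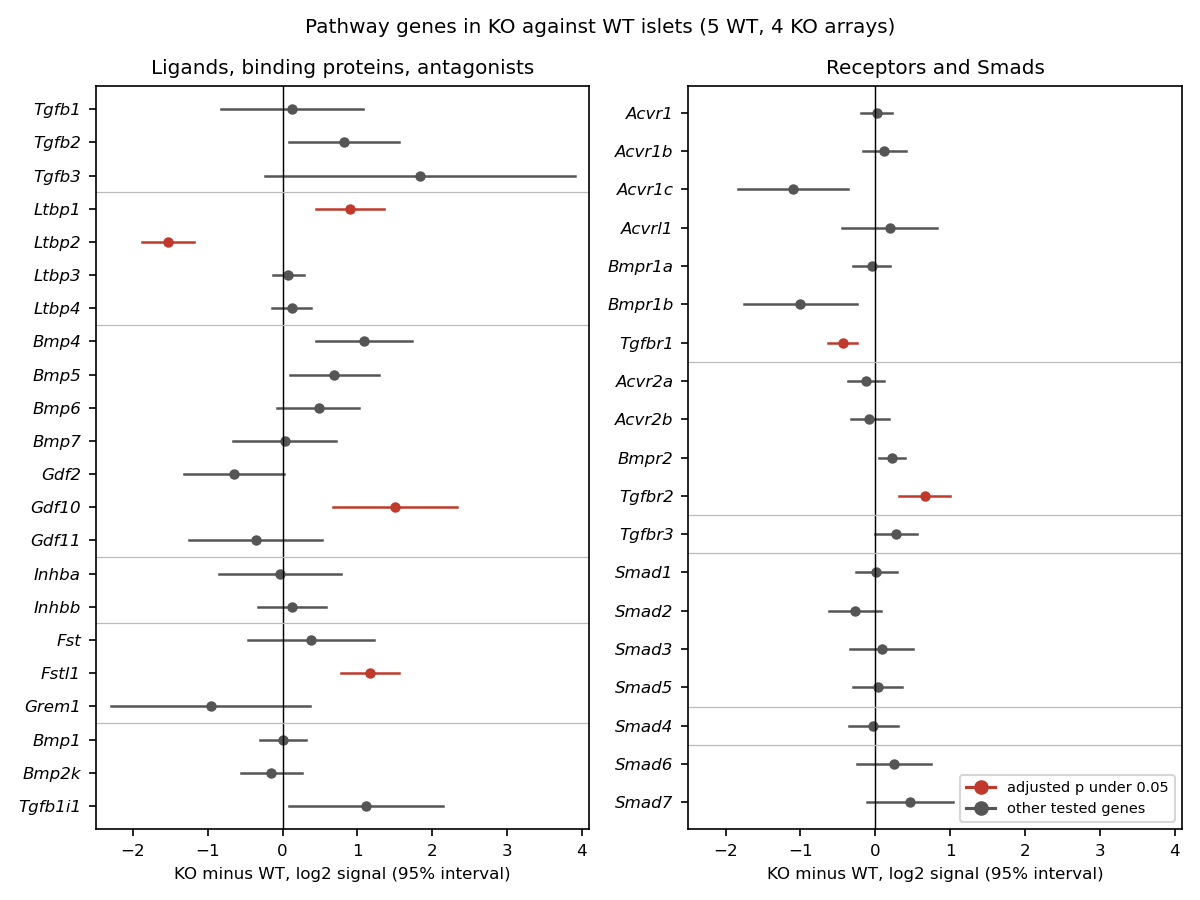
Difference between βRapKO (KO) and WT islets on the log2 scale for the 41 tested pathway genes, in groups by role, with 95% intervals from limma. Red marks the 6 genes with an adjusted p under 0.05, of which *Ltbp2* (-1.53) and *Gdf10* (1.5) lie farthest from 0, while *Tgfb3* (1.84) has the widest interval.

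The latent TGF-beta binding proteins, large matrix proteins related to the fibrillins, did not move together. *Ltbp2*, whose product belongs to this family by sequence and binds elastic fibres but, unlike its relatives, is not known to hold latent TGF-beta, showed the strongest fall. The WT arrays read 7.79, 7.78, 8.20, 7.88 and 7.51 and the βRapKO arrays 6.23, 6.11, 6.23 and 6.62. Every βRapKO value lay well under the lowest WT value. *Ltbp2* fell from 7.83 ± 0.25 to 6.30 ± 0.22, a log2 difference of -1.53 ± 0.15 or 2.90-fold (limma adjusted p = 0.00118), and it was called in 16 of the 17 other settings that tested it. *Ltbp1*, which anchors latent TGF-beta in the matrix, moved the opposite way. Its signal was 6.01, 6.38, 6.88, 6.60 and 7.05 on the WT arrays and 7.45, 7.64, 7.51 and 7.32 on the βRapKO arrays. The groups lay close but did not overlap, and the WT values were spread more widely than the βRapKO values. *Ltbp1* rose by 0.90 ± 0.20, or 1.86-fold (limma adjusted p = 0.0357), although it was called in only 4 of 17 other settings. With its 3 probe sets averaged the difference was -0.03 ± 0.55, the other 2 probe sets being dim, at means of 2.95 and 2.31. *Ltbp3* and *Ltbp4*, the remaining family members, read 11.47 ± 0.13 and 8.62 ± 0.16 in WT islets, with differences of 0.07 ± 0.09 and 0.12 ± 0.12. The 95% intervals of both lay within a 1.5-fold change either way (0.58 on the log2 scale).

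The promoters of *Ltbp1* and *Ltbp2* are shown side by side, since these relatives differed in opposite directions. The sequences are from RefSeq, build GRCm38.p6, and run from 250 bases before to 50 bases after a transcription start. Capitals mark the letters CAGAC or their reverse complement GTCTG, the short box that Smad3 and Smad4 bind, and GGCGCC, a GC-rich box bound in BMP targets; GTCTAGAC, the palindromic box, was also searched, and all were searched on both strands. The *Ltbp1* stretch at chr17:75005279-75005578 (plus strand, the upstream of its 2 listed starts) held GTCTG at 64 bases before the start. The other *Ltbp1* promoter, at chr17:75178531-75178830 and not shown, held it at 148 and 97 bases before its start, and the *Ltbp2* stretch at chr12:84876442-84876741 (minus strand) held the box 3 times, at 205 and 176 bases before and 28 bases after the start.
Ltbp1: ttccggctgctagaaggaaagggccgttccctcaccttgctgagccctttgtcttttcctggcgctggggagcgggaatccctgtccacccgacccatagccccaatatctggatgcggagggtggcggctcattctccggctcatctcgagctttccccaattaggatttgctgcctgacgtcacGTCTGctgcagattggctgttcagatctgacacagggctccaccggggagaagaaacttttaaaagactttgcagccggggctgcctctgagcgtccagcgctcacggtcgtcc
Ltbp2: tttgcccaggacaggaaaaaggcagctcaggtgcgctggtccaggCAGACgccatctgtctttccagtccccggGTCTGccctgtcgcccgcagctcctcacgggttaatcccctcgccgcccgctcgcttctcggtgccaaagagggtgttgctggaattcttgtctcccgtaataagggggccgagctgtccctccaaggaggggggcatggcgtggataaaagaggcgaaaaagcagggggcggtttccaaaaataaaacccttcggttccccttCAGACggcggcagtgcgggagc
Promoters were found for 38 of the 53 genes, 47 in all. CAGAC or GTCTG stood in 20 of these 47 (42.6%) and in 49.6% of all 32851 promoters, so that the box was about as common elsewhere. GGCGCC stood in 12 of the 47 (25.5%) against 11.9% of all promoters, and the median GC content was 64.3% against 52.7%. The palindrome occurred in 1 of the 47 (2.13%), against 0.213% of all. A match is a description of letters and was not tested for binding.

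None of the 3 TGF-beta ligand genes passed the test. *Tgfb2* came nearest: the WT arrays read 7.13, 6.73, 7.72, 6.47 and 7.85 and the βRapKO arrays 7.55, 8.56, 7.83 and 8.08. All βRapKO values exceeded the WT mean, but WT replicates 3 and 5 lay within the βRapKO range. The difference was 0.82 ± 0.32 (limma adjusted p = 0.179). A second *Tgfb2* probe set, with a mean of 6.92, differed by 0.99 ± 0.25 with no overlap (limma unadjusted p = 0.00378, adjusted p over all probe sets = 0.132), and another, with a mean of 5.97, by 0.45 ± 0.74 with overlap. *Tgfb1* was close in both groups, at 6.28 ± 0.87 and 6.40 ± 0.39. *Tgfb3* had the highest difference of all, 1.84 ± 0.91 (limma adjusted p = 0.283), but from a dim WT level of 4.85 ± 1.97 whose SD exceeded the difference, and with the stromal marker mean as a covariate, described later, it turned to -1.72 ± 1.35.

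**Figure D2:**
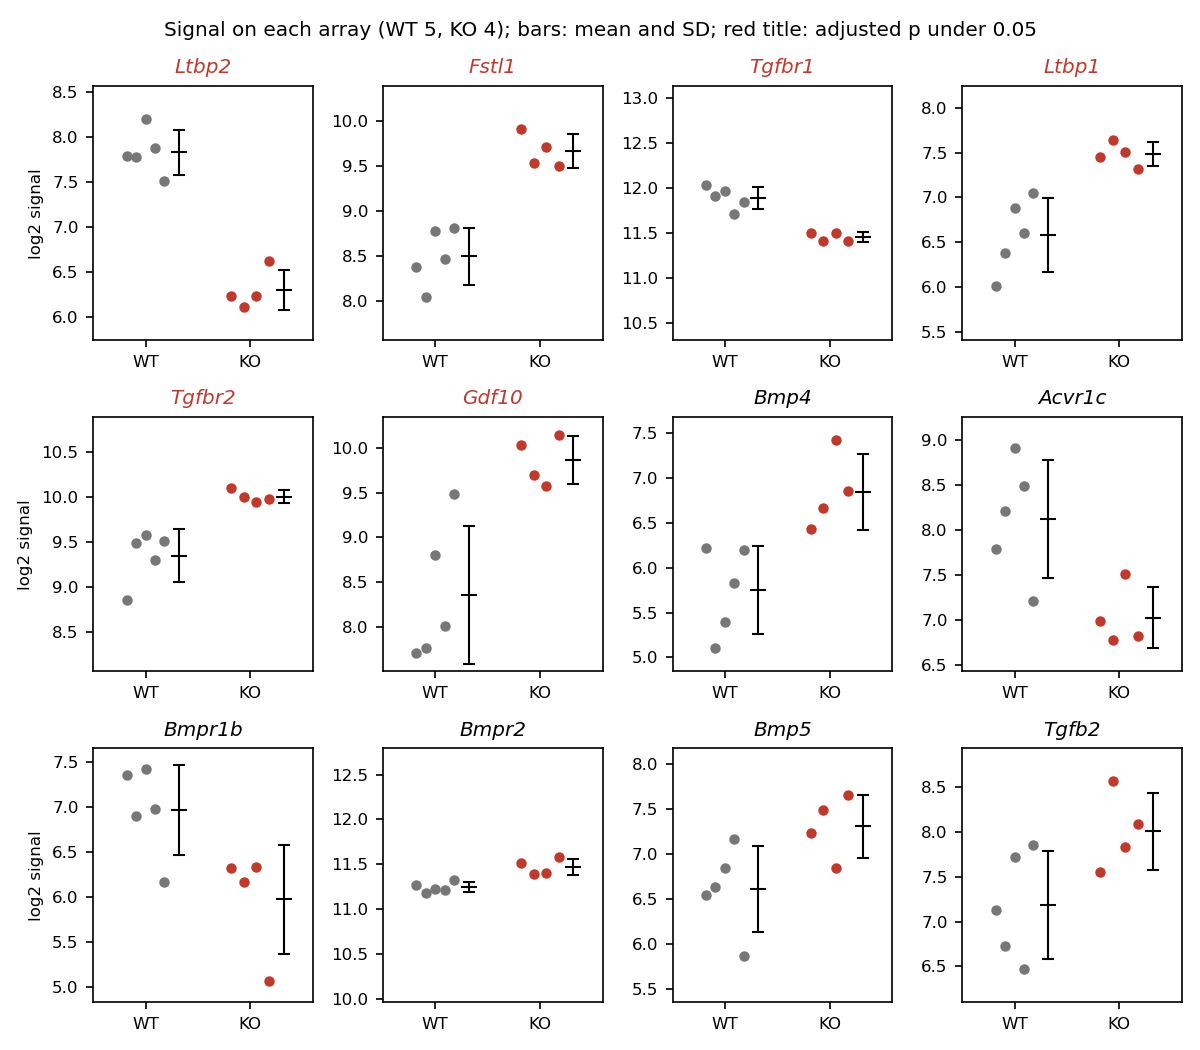
Log2 signal of 12 pathway genes on each of the 5 WT and 4 βRapKO (KO) arrays, with mean and SD beside the points, and each panel on a vertical axis of its own. The 6 genes with red titles passed the test and show no overlap of the groups, as do *Bmp4* and *Bmpr2*, which did not pass.

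Of the 15 BMP and GDF ligand genes 7 were tested, and *Gdf10* was the one called. GDF10, also known as BMP3B, is a BMP-related protein that acts against osteogenic BMP signals. Its signal was 7.71, 7.77, 8.81, 8.01 and 9.48 on the WT arrays and 10.03, 9.70, 9.57 and 10.14 on the βRapKO arrays. WT replicate 5 almost reached the lowest βRapKO value, and WT replicates 3 and 5 stood above the other WT arrays. *Gdf10* rose from 8.36 ± 0.77 to 9.86 ± 0.27, by 1.5 ± 0.36 or 2.83-fold (limma adjusted p = 0.0456), and was called in 3 of 18 other settings. *Bmp4*, a ligand with roles in vessels and mesenchyme, read 6.22, 5.10, 5.40, 5.83 and 6.20 on the WT arrays and 6.43, 6.66, 7.42 and 6.85 on the βRapKO arrays. All βRapKO values were above all WT values, with a gap of less than 1 SD. The difference of *Bmp4* was 1.09 ± 0.28 and did not pass (limma adjusted p = 0.0556). In the 17 other settings the adjusted p ran from 0.0513 to 0.456, whereas *Bmp4* did meet the study's looser thresholds. *Bmp5*, a related ligand, read 6.54, 6.63, 6.85, 7.17 and 5.87 in WT and 7.24, 7.49, 6.85 and 7.66 in βRapKO islets. The third βRapKO array fell among the WT values, and the difference was 0.69 ± 0.26 (limma adjusted p = 0.162). *Bmp6*, which regulates hepcidin in the liver, differed by 0.48 ± 0.24, *Bmp7* by 0.03 ± 0.31, *Gdf11* by -0.36 ± 0.40 and *Gdf2*, the circulating ligand BMP9, by -0.65 ± 0.30. None of these passed, and none had an interval within a 1.5-fold change.

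The activin subunit genes *Inhba* and *Inhbb* were alike in the group means. *Inhba* read 7.66 ± 0.22 in WT and 7.63 ± 0.87 in βRapKO islets (-0.04 ± 0.36), but its βRapKO arrays ranged from 6.36 to 8.25. *Inhbb* differed by 0.12 ± 0.20, with an interval of -0.33 to 0.58.

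Among the 7 type I receptor genes, *Tgfbr1*, which encodes the TGF-beta type I kinase ALK5, was the only one called. Its signal was 12.03, 11.91, 11.97, 11.71 and 11.85 on the WT arrays and 11.50, 11.41, 11.50 and 11.41 on the βRapKO arrays. The spread was small on this bright probe set and the groups lay apart. *Tgfbr1* fell by 0.43 on the log2 scale (SE 0.09), from 11.89 ± 0.12 to 11.46 ± 0.05, or 1.35-fold (limma adjusted p = 0.0247, called in 8 of 18 other settings). *Acvr1c*, which encodes ALK7, the activin and nodal receptor known from beta cells and fat, read 7.79, 8.21, 8.91, 8.49 and 7.21 in WT and 6.99, 6.77, 7.51 and 6.82 in βRapKO islets. The single overlap came from WT replicate 5, which lay below the third βRapKO array. The difference of -1.10 ± 0.33 (2.14-fold) did not pass (limma adjusted p = 0.0842), although it did without WT replicate 5 and with a variance trend. Its other probe sets, with means of 6.55 and 5.51, differed by -0.34 ± 0.30 and 0.18 ± 0.34. With probe sets averaged the *Acvr1c* difference was -0.42 ± 0.20 (limma adjusted p = 0.337). *Bmpr1b*, the BMP receptor ALK6, read 7.36, 6.90, 7.42, 6.98 and 6.16 in WT and 6.32, 6.17, 6.33 and 5.06 in βRapKO islets. WT replicate 5 was again low, and βRapKO replicate 4 stood far under the rest of its group. The difference of *Bmpr1b* was -1.0 ± 0.33 (limma adjusted p = 0.116). The broadly expressed receptors *Acvr1* (0.02 ± 0.09), *Acvr1b* (0.12 ± 0.12) and *Bmpr1a* (-0.05 ± 0.11) had intervals within a 1.5-fold change. The endothelial receptor gene *Acvrl1* differed by 0.19 ± 0.28.

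*Tgfbr2*, the type II partner of *Tgfbr1*, moved the opposite way. It read 8.85, 9.49, 9.58, 9.30 and 9.51 on the WT arrays and 10.10, 10.00, 9.94 and 9.98 on the βRapKO arrays. The βRapKO values were tightly grouped above every WT value. *Tgfbr2* rose from 9.35 ± 0.30 to 10.00 ± 0.07, by 0.66 ± 0.15 or 1.58-fold (limma adjusted p = 0.0378), and was called in 6 of 18 other settings. With its 3 probe sets averaged the difference was -0.09 ± 0.50, the others having dim means of 4.22 and 3.72. *Bmpr2*, the BMP type II receptor, read 11.27, 11.18, 11.23, 11.22 and 11.33 in WT and 11.52, 11.39, 11.40 and 11.58 in βRapKO islets. These groups did not overlap, yet the difference was only 0.22 ± 0.08 (limma adjusted p = 0.135), and its 95% interval of 0.05 to 0.40 kept it under a 1.5-fold change. The activin type II receptors *Acvr2a* (-0.13 ± 0.11) and *Acvr2b* (-0.08 ± 0.11), and the co-receptor betaglycan, *Tgfbr3* (0.28 ± 0.13), also stayed within it.

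For the receptor pair that differed in opposite directions, the *Tgfbr1* promoter at chr4:47352972-47353271 (plus strand, the upstream of its 2 listed starts) and the *Tgfbr2* promoter at chr9:116175314-116175613 (minus strand) are given with the same boxes in capitals. The *Tgfbr1* stretch held GGCGCC at 233 bases before the start and no CAGAC or GTCTG, and the *Tgfbr2* stretch held CAGAC at 160 bases before the start. The other *Tgfbr1* promoter, at chr4:47385966-47386265 and not shown, also held CAGAC, at 203 bases before its start, so that the receptor genes do not differ in having the box.
Tgfbr1: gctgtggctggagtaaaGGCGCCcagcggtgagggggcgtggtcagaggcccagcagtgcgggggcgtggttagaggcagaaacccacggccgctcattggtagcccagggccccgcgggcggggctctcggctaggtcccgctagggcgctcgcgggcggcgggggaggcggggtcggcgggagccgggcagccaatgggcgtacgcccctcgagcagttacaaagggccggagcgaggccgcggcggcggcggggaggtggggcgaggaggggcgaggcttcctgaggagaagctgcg
Tgfbr2: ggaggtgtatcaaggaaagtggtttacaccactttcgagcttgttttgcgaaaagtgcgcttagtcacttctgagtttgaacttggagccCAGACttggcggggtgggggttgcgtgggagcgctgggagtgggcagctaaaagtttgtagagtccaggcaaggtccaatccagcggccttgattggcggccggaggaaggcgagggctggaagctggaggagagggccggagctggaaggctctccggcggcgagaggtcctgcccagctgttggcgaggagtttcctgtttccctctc

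No Smad gene was called, and most differed little. *Smad1* (0.01 ± 0.12) and *Smad5* (0.03 ± 0.15), which carry BMP signals, *Smad3* (0.09 ± 0.19), which carries TGF-beta and activin signals, and the common partner *Smad4* (-0.03 ± 0.14) all had intervals within a 1.5-fold change. *Smad2*, the relative of *Smad3*, differed by -0.27 ± 0.16 (95% interval -0.62 to 0.08). The inhibitory Smads are themselves targets of the pathway. *Smad6* differed by 0.25 ± 0.22. *Smad7* differed by 0.47 ± 0.25 at its brightest probe set, where the groups overlapped, and by 0.70 ± 0.14 at the other, where they did not (limma unadjusted p = 0.000764, adjusted p over all probe sets = 0.0624).

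*Fstl1* was the clearest rise of the family. Follistatin-like 1 is a secreted glycoprotein, abundant in mesenchymal cells, that can bind BMP4 and other ligands. It read 8.38, 8.04, 8.78, 8.47 and 8.81 on the WT arrays and 9.91, 9.53, 9.71 and 9.50 on the βRapKO arrays. All βRapKO values lay above all WT values by more than the SD of either group. *Fstl1* rose from 8.50 ± 0.32 to 9.66 ± 0.19, by 1.17 ± 0.17 or 2.24-fold (limma adjusted p = 0.00674), and was called in 16 of 18 other settings. The other *Fstl1* probe set differed by 1.33 ± 0.30, also with no overlap. *Fst*, the gene of follistatin, which binds activins, was dim and differed by 0.38 ± 0.37, and *Grem1*, a BMP antagonist, by -0.96 ± 0.59. Of the genes matched by name alone, *Tgfb1i1*, also called Hic-5, differed by 1.12 ± 0.46 (limma adjusted p = 0.197), *Bmp1*, the procollagen C-proteinase, by 0.01 ± 0.13 and *Bmp2k*, a kinase, by -0.15 ± 0.18.

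In all, 16 of the 41 tested genes had a 95% interval within a 1.5-fold change: *Ltbp3*, *Ltbp4*, *Inhbb*, *Acvr1*, *Acvr1b*, *Bmpr1a*, *Acvr2a*, *Acvr2b*, *Bmpr2*, *Tgfbr3*, *Smad1*, *Smad3*, *Smad4*, *Smad5*, *Bmp1* and *Bmp2k*. For each other gene that was not called, the interval reached past a 1.5-fold change on at least 1 side. The remaining 12 genes were too dim to be tested: *Bmp2*, *Bmp8a*, *Bmp8b*, *Bmp10*, *Bmp15*, *Gdf3*, *Gdf5*, *Gdf9*, *Inhbc*, *Inhbe*, *Smad9* and *Nog*. Their group means lay between 2.96 and 6.08 and their differences between -2.0 and 1.78, and the groups overlapped for every one of them.

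The 53 genes had 111 probe sets assigned to a single gene. Fitted each on its own among all such probe sets, 2 of the 111 passed, those of *Ltbp2* and *Fstl1*, where 0.97% of all probe sets passed, and 19 had an unadjusted limma p under 0.05, where 12.9% of all did. Of 19 genes with at least 2 probe sets above the dim filter, 9 had all such probe sets on the same side of 0 and 10 did not, and for 0 genes did probe sets with p under 0.05 point in opposite directions. The called genes had 7 other probe sets, and 1 of them, that of *Fstl1*, was above the filter, so that the calls of *Ltbp1*, *Tgfbr1* and *Tgfbr2* rest on 1 bright probe set each. *Ltbp2* and *Gdf10* had no other.

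**Figure D3:**
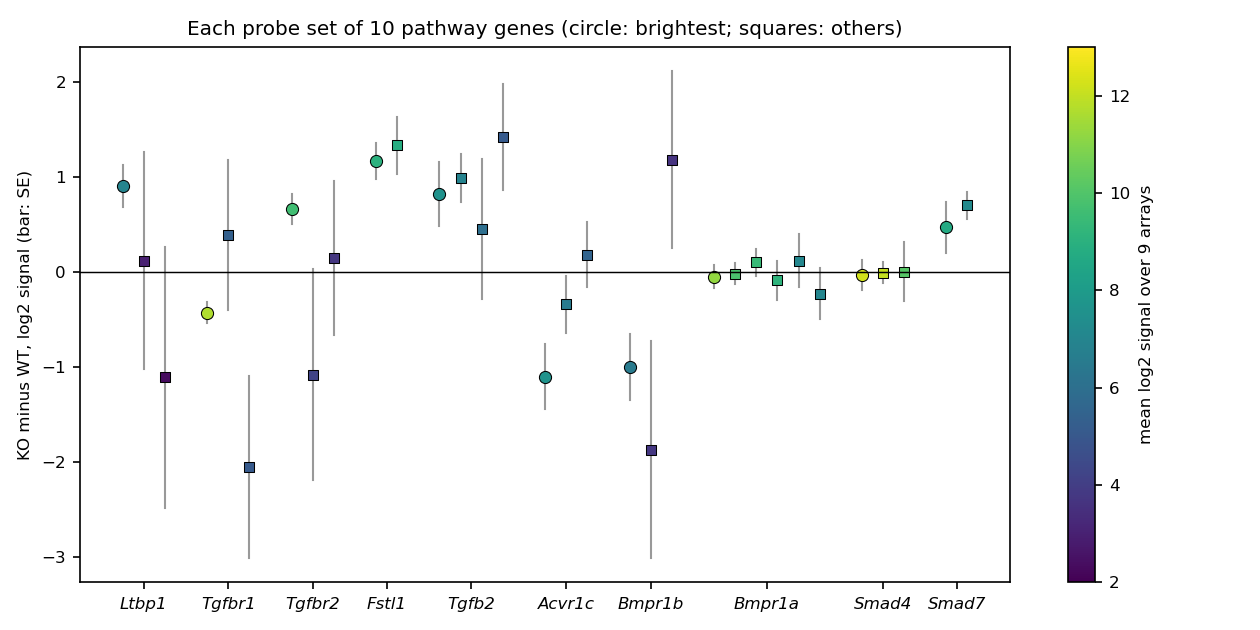
Difference between βRapKO (KO) and WT islets, log2 scale with SE bars, at every single-gene probe set of 10 pathway genes, coloured by mean log2 signal, with circles for the brightest probe set of a gene and squares for the others. Both *Fstl1* probe sets lie above 1, while the dark squares of *Ltbp1*, *Tgfbr1* and *Tgfbr2* are dim and have wide bars.

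Genes that rose were read beside the markers of other islet cells. The mean log2 signal of 18 stromal markers lay between 8.04 and 9.06 on the WT arrays and between 9.43 and 9.97 on the βRapKO arrays, and their summed linear signal between 12400 and 23200 against 27500 and 41200. The stromal mean was highest among WT arrays in replicates 3 (8.95) and 5 (9.06), in which *Gdf10*, *Fstl1*, *Ltbp1* and *Tgfbr2* also had their highest WT values. *Tgfbr2* was nearly as high (9.49) in WT replicate 2, where the stromal mean was lowest (8.04). Among βRapKO arrays the stromal mean was lowest in replicate 3 (9.43), as were *Gdf10* and *Tgfbr2*. *Fstl1* was lowest in βRapKO replicate 4 and *Ltbp1* highest in replicate 2, whereas the stromal mean was highest in replicate 1 (9.97). The stromal means did not overlap between the genotypes, so that the covariate and the genotype can hardly be told apart. With the stromal mean as a covariate none of the 41 genes was called, and 5 of all genes were, with a median SE 1.99 times larger, and 17 of the 41 differences changed sign. In that fit *Fstl1* differed by 0.45, *Tgfbr2* by 0.25, *Ltbp1* by 0.15, *Gdf10* by -0.30 and *Tgfb2* by -0.13. *Ltbp2* differed by -1.61 (limma adjusted p = 0.167) and *Tgfbr1* by -0.40 (limma adjusted p = 0.375). Other genes above 0 did not shrink: *Bmp4* differed by 1.11 ± 0.61, *Bmp5* by 0.94 ± 0.56 and *Tgfb1i1* by 1.46 ± 0.99. The sign was kept by 24 of the 41 genes. Endothelial markers, 0 of 8 called, had means of 9.80 to 10.05 in WT and 10.13 to 10.45 in βRapKO islets. The 4 tested Schwann and glial markers (*Cdh19* called) had means of 5.63 to 6.71 against 7.01 to 7.32. Of these 3 were higher in βRapKO islets, and *Sox10* differed by -0.05 ± 0.57. The 3 ductal markers (0 called) had means of 6.73 to 7.92 against 8.09 to 8.69. Their summed signal overlapped, at 4090 to 4790 against 4450 to 5400. The bright *Krt7* differed by 0.11 ± 0.09, and *Krt19* and *Sox9*, dim in WT islets, by 1.97 ± 0.61 and 0.67 ± 0.98. For macrophage markers, with *C1qa* called of 6, the ranges overlapped, and acinar markers ran from 9.02 to 12.62 against 8.78 to 12.73. The mean of the 2 delta cell markers lay between 12.28 and 12.51 in WT and between 12.58 and 12.96 in βRapKO islets. That separation came from *Hhex* (0.84 ± 0.15, called), while *Sst* differed by -0.04 ± 0.09. The summed delta signal overlapped, at 35600 to 42400 in WT and 34900 to 40600 in βRapKO islets. Most of that sum was *Sst*, whose means of 15.21 in WT and 15.17 in βRapKO islets lay near the top of the signal range. Whether a change could show there was not tested, so this overlap says little about delta cells. Alpha cell markers, 0 of 4 called, overlapped. The same limit holds for *Gcg* and *Ttr* among them, with WT means of 15.3 and 15.36. No marker was at the floor of the signal on any array. The part of these cells in the pathway genes' differences was not tested beyond the covariate.

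**Figure D4:**
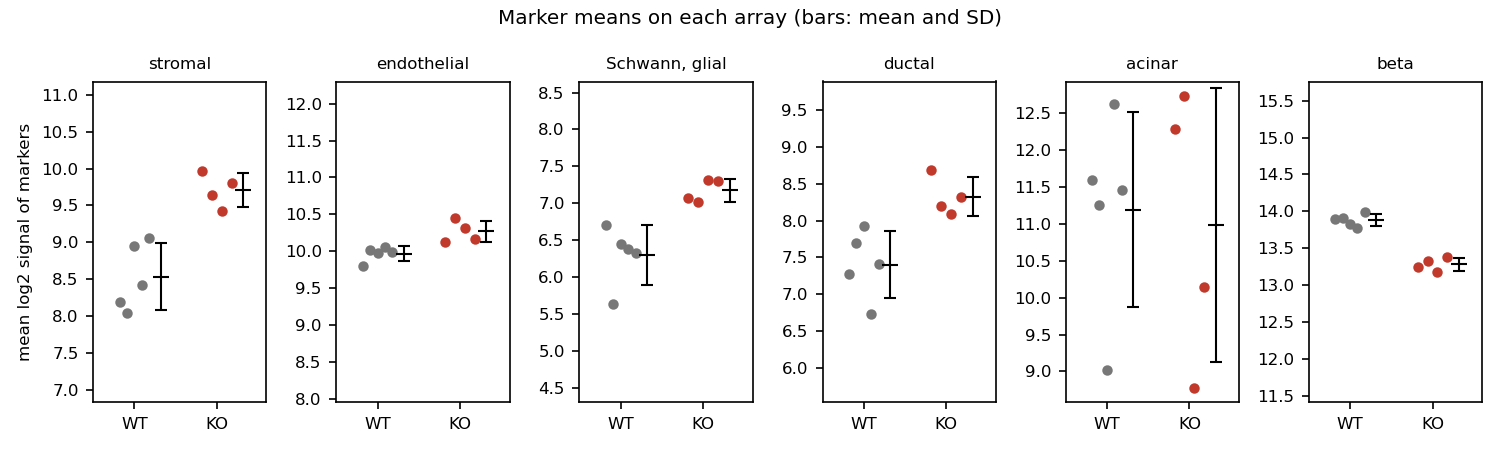
Mean log2 signal of 6 sets of cell type markers on each of the 5 WT and 4 βRapKO (KO) arrays, with mean and SD beside the points and an axis of its own for each panel. Stromal, endothelial, Schwann and ductal means lie higher on every βRapKO array and beta cell means lower, while acinar means overlap widely.

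A list of 73 further genes of the pathway was chosen for their role, but with earlier results of these data known. It gave 58 tested genes, of which 7 rose and 1 fell, or 13.8% against 6.3% of all tested genes. These shares are a description and were not tested. The median difference of the 58 was 0.023. Among matrix proteins that bind TGF-beta, *Bgn* (biglycan) rose by 1.44 ± 0.14 (limma adjusted p = 0.000985) and *Dcn* (decorin) by 2.04 ± 0.38 (limma adjusted p = 0.0173), and *Dcn* is also a stromal marker used here. *Htra1*, a secreted protease that can cut TGF-beta family proteins, rose by 1.68 ± 0.25, from WT values of 6.21, 6.00, 6.65, 6.24 and 7.11 to βRapKO values of 8.61, 7.84, 7.82 and 8.22. *Bambi*, a pseudoreceptor that dampens signalling and is itself a target, was bright and rose by 0.54 ± 0.10 (limma adjusted p = 0.0160). It read 12.09, 12.24, 12.26, 12.13 and 12.05 in WT and 12.70, 12.71, 12.87 and 12.48 in βRapKO islets, with no overlap. *Sostdc1*, a secreted BMP and Wnt antagonist, rose by 1.00 ± 0.25 (limma adjusted p = 0.0462), but was called in 2 of 17 other settings and differed by 0.33 with probe sets averaged and -0.10 with the stromal covariate. *Zeb2*, a Smad-binding repressor, rose by 0.65 ± 0.13 (limma adjusted p = 0.0275), and was called in 8 of 17. *Itgav*, the integrin chain that takes part in freeing latent TGF-beta, fell by 0.54 on the log2 scale (SE 0.09, limma adjusted p = 0.0122), from WT values between 12.77 and 12.98 to βRapKO values between 12.27 and 12.54. With probe sets averaged the differences of *Itgav* (-0.15) and *Dcn* (0.66) were smaller and not called. With the stromal covariate those of *Htra1* (0.48), *Bgn* (0.95) and *Zeb2* (0.51) were smaller, while those of *Bambi* (0.65) and *Itgav* (-0.63) were not. *Dcn* (0.16) is itself 1 of the 18 markers averaged in the covariate, so that its smaller difference there was built in. None of the further genes was called in that fit, but only 5 of all genes were, so the missing calls say little.

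The *Id* genes, classical targets of BMP signals, were all above 0 in difference. *Id2* rose by 0.56 ± 0.12 (limma adjusted p = 0.0291), with WT values of 8.94, 8.93, 8.67, 8.89 and 8.49 and βRapKO values of 9.48, 9.31, 9.21 and 9.38. It was called in 8 of 18 other settings, and the difference was 0.19 ± 0.18 with its probe sets averaged and 0.88 ± 0.22 with the stromal covariate. *Id3* differed by 0.82 ± 0.23 (limma adjusted p = 0.0716), *Id1* by 0.55 ± 0.21 and *Id4* by 0.27 ± 0.27, and none of these passed. Among targets of TGF-beta, *Tgfbi* differed by -0.07 ± 0.17, *Pmepa1* by 0.29 ± 0.15, *Skil* by -0.03 ± 0.14 and *Cdkn2b* by -0.44 ± 0.18, with no call.

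**Figure D5:**
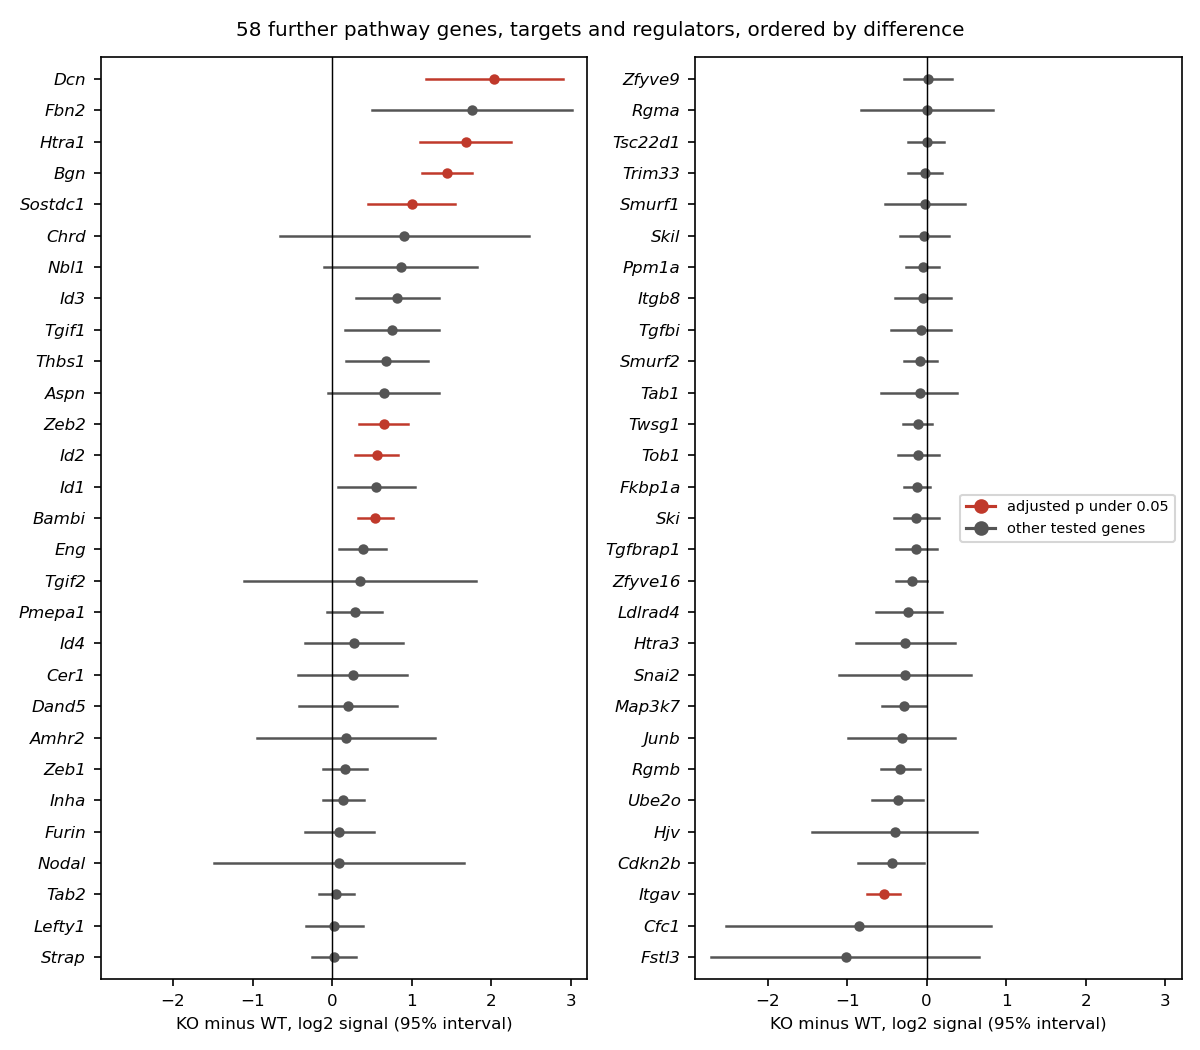
Difference between βRapKO (KO) and WT islets on the log2 scale for 58 further ligands, regulators and targets of the pathway, ordered by difference, with 95% intervals from limma. The 8 genes in red have an adjusted p under 0.05, 7 above 0 and *Itgav* below it.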

How the data were processed

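The authors deposited 1 log2 signal per probe set and array; their methods name Genespring, while the scaling and summarisation of probes are not stated in their methods or labels. On every array the trimmed mean of the linear signal was 497.1 to 497.7, and 43 to 107 values lay at a floor of 1. The values were used as deposited, and 0 columns were left unused. Of 45037 probe sets 34945 were paired with 1 gene, 932 with several and 9160 with none. Each gene was represented by its brightest single-gene probe set, and the dimmest 0.25 of genes (mean log2 signal up to 5.5054) was left out. βRapKO and WT arrays, grouped by title, were compared by a two-sided limma test (version 3.58.1, R 4.3.3, with lmFit, eBayes and genotype as the single term), and p-values were adjusted by Benjamini-Hochberg over 13644 genes, with a threshold of 0.05. Per-array values are given for the called pathway genes and those with the lowest p, 12 in all; other pathway genes are given by difference or range, and called genes of the other lists up to 8 each way or 3 a marker list. *Htra1*, *Bambi*, *Id2* and *Itgav* values by array, and the *Id* and target genes that were not called, were added after values were seen. The members and lists were chosen with earlier results of these data known. Alternatives changed the normalization, filter, probe set rule, test, block, covariate and the arrays included. The code was tested on simulated data. No scan dates or detection calls were used, and no batches were examined.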

Additional observations from a re-analysis of the deposited data

Results flagged for a closer look

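Single arrays that stood apart from their group were looked for in the 82 groups formed by the 41 tested pathway genes and the 2 genotypes, where chance flags about 1 in 20 groups, and 3 were found. For *Bmpr1b* βRapKO replicate 4 read 5.06, the nearest other βRapKO array 6.17, so that the gap was 0.878 of the group's range. For *Inhba* WT replicate 1 read 7.26 against 7.74 for the nearest WT array (0.891 of the range), and for *Ltbp4* WT replicate 4 read 8.34 against 8.63 (0.737 of the range).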

How the results depend on the processing

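The count of 6 called among the 41 tested pathway genes became 3 with arrays centred on their medians (1 higher, 2 lower; all genes shifted by -0.04), 2 without the filter on dim genes (53 tested), 2 with probe sets averaged, 3 with the t-test of the study's methods, 1 with a replicate block, 0 with the stromal covariate, 2 with every probe set fitted on its own and 11 at a fold of 1.5 with an unadjusted p under 0.05. Leaving out 1 array gave 2 to 7. For all tested genes the counts were 474 (214 higher, 260 lower) with median centring, 452 with no filter, 322 with averaging, 61 with the replicate block, 5 with the covariate and 372 to 800 with 1 array left out, the lowest without βRapKO replicate 1. For the further pathway genes they were 5 with no filter, 3 with averaging, 0 with the block, 0 with the covariate and 3 to 9 with 1 array left out, again lowest without βRapKO replicate 1. Differences turned with probe sets averaged for *Ltbp1* (-0.03) and *Tgfbr2* (-0.09), and with the covariate for *Sostdc1* (-0.10) and 17 of the 41 pathway genes, among them *Gdf10* (-0.30), *Tgfb2* (-0.13) and *Tgfb3* (-1.72). Same-numbered WT and βRapKO arrays deviated with correlations of -0.04, 0.088, 0.12 and -0.027, and arrays of different number with -0.11 to 0.157. These values gave no sign of pairing but cannot exclude it, and the labels do not state it. Quantile normalization, a stricter filter and limma with a trend gave 4, 4 and 7 pathway genes. Dim probe sets limited what could be detected, and the causes were not tested.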
